A study of Mus musculus with 8 samples.

Results

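The 35 genes described here belong to the unfolded protein response of the endoplasmic reticulum (ER) and to the integrated stress response. They were chosen by symbol from a list of ER chaperones, ER stress sensors and targets of the transcription factor ATF4, and all 35 were found among the 23337 genes of the deposited table. The table comes from RNA sequencing of endothelial cells sorted from whole mouse embryos at E15.5. The mice are described as transgenic for Cdh5-CreERT2(PAC), a tamoxifen-inducible Cre recombinase under an endothelial promoter, and for Rosa26fsTRAP, a Cre-dependent allele in the Rosa26 gene, and all samples have wild type as their genotype entry. Pregnant females received tamoxifen by gavage at E12.5 in 1 group and no tamoxifen in the other, so the drug and the recombinase it activates cannot be told apart. The labels list 4 samples per group without naming the litter or embryo of any, and p-values therefore refer to sample-to-sample spread that could be technical only.

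The header of the table is 1 field short, and only 6 value columns keep the same group under both ways of placing the names. These gave 3 libraries without tamoxifen (columns 3 to 5) and 3 with tamoxifen (columns 7 to 9), numbered 1 to 3 in table order. Columns 6 and 10 are shown apart. The 6 libraries held 8436939 to 13283464 reads outside Rn45s, the ribosomal RNA precursor, which took 29.4% to 38.7% of all reads in genes. All 10 endothelial markers were detected in every library, at a summed 7883 to 19489 normalised reads, but 9 macrophage markers summed to 27770 to 44650, so values cannot be assigned to endothelial cells. Fewer cells of a type and less RNA per cell cannot be told apart in such bulk libraries.

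The unfolded protein response adjusts the folding capacity of the ER to its load of secretory and membrane proteins. Of its sensors, IRE1 (encoded by Ern1) splices the messenger RNA of Xbp1, PERK (Eif2ak3) phosphorylates the translation factor eIF2 alpha, and ATF6 is cleaved to release a transcription factor. XBP1 and ATF6 raise genes for chaperones and for ER-associated degradation, while phosphorylated eIF2 alpha lowers overall translation and favours that of ATF4, which raises genes for amino acid supply, redox balance and, under prolonged stress, cell death. Other kinases than PERK act on the same site of eIF2 alpha, and this wider pathway is the integrated stress response. Endothelial cells secrete basement membrane and clotting proteins and depend on this machinery, as do macrophages and matrix-producing connective tissue cells. Splicing of Xbp1, cleavage of ATF6 and phosphorylation of eIF2 alpha cannot be read from gene-level counts.

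Promoter sequences of the members were searched for short elements of both arms of the response. RefSeq promoters on GRCm38.p6, each spanning 250 bases before to 50 after an annotated start, were matched for 32 of the 35 members (34 promoters), and Atf6, Hyou1 and Manf were without an entry. The ER stress response element ERSE (CCAAT and CCACG with 9 bases of any kind between them, searched on both strands) was found for 8 members, Calr, Canx, Creld2, Dnajc3, Hsp90b1, Hspa5, Pdia6 and Syvn1. It occurred in 23.5% of the members' promoters and in 0.119% of all 32851 promoters, where 39 held it. The related ERSE-II (ATTGG and CCACG with 1 base of any kind between them) was found for Herpud1 and Dnajb11, against 0.0365% of all promoters. Both elements pair a CCAAT box, read on either strand, with CCACG. The element was defined on genes of this kind, so its presence among them is background and not a finding of these libraries. The stretches below are the matches upstream of the start, 5′ to 3′ on the strand of the gene, with the element in capitals. For ERSE, CGTGG and ATTGG are its reverse strand, while the ERSE-II match of Herpud1 is on the forward strand.
Hspa5 (chr2:34771940-34772089, + strand): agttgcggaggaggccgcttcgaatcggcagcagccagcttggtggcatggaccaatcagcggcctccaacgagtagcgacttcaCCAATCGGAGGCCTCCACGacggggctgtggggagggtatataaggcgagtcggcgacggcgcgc
Calr (chr8:84847060-84847108, - strand): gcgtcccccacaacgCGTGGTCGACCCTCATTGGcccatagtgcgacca
Hsp90b1, distal (chr10:86705623-86705671, - strand): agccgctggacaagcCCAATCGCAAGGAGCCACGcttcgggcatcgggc
Hsp90b1, proximal (chr10:86705518-86705566, - strand): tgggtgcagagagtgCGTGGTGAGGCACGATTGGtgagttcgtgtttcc
Canx (chr11:50325785-50325833, - strand): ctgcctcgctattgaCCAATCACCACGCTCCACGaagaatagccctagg
Pdia6 (chr12:17266476-17266524, + strand): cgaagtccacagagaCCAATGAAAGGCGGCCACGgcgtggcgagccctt
Dnajc3 (chr14:118937812-118937860, + strand): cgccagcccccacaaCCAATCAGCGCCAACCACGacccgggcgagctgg
Creld2 (chr15:88819505-88819553, + strand): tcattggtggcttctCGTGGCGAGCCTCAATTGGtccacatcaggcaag
Syvn1 (chr19:6046517-6046565, + strand): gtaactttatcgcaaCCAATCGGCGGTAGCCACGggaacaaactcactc
Herpud1, ERSE-II (chr8:94386362-94386402, + strand): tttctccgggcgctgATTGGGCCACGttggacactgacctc

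The element bound by ATF4 with C/EBP proteins, CARE (TGATGNAA, both strands), was found for 5 members, Chac1, Trib3, Slc7a11, Asns and Herpud1, of which Slc7a11 held it at 2 places. It occurred in 14.7% of the members' promoters and 3.97% of all promoters. The members were chosen in part as ATF4 targets, so this too is background and not a finding of these libraries. The other arm's element UPRE (TGACGTGG) was in none of the 34 windows and in 0.676% of all promoters, which says only that these letters are not in these windows. The matches upstream of the start are shown for the genes whose values are compared below, again with the element in capitals (TTGCATCA is its reverse strand).
Chac1 (chr2:119351034-119351071, + strand): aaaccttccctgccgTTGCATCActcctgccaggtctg
Slc7a11 (chr3:50443638-50443694, - strand): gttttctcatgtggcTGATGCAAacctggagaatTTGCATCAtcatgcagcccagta
Asns (chr6:7693210-7693247, - strand): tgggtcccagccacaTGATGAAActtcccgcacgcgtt
Herpud1 (chr8:94386302-94386339, + strand): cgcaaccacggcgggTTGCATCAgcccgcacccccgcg

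Per length of exon, the most abundant members were ER chaperones, though others of that group were lower, down to Dnajb9 with 158 normalised reads per kb. The calcium-binding lectin chaperone Calr had 5294 normalised reads per kb (mean of the 6 libraries), followed by the HSP70 chaperone of the ER, Hspa5, with 2781, and its HSP90 counterpart Hsp90b1 with 2295. Atf4 led the integrated stress response genes with 1035 reads per kb, and the amino acid exchanger subunit Slc3a2 (CD98 heavy chain) led the amino acid genes with 935. The lowest members were the ATF4 targets Chac1, which encodes a glutathione-degrading enzyme, with 19.4 reads per kb, and the pseudokinase gene Trib3 with 11.5. Slc7a11, the cystine transporter that pairs with Slc3a2, had 21.8 reads per kb, a level set in part by its annotated exon length of 13922 bases over all transcripts. Not corrected for length, the members ran from 17.1 normalised reads for Trib3 to 19262 for Calr in single libraries.

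**Figure D1:**
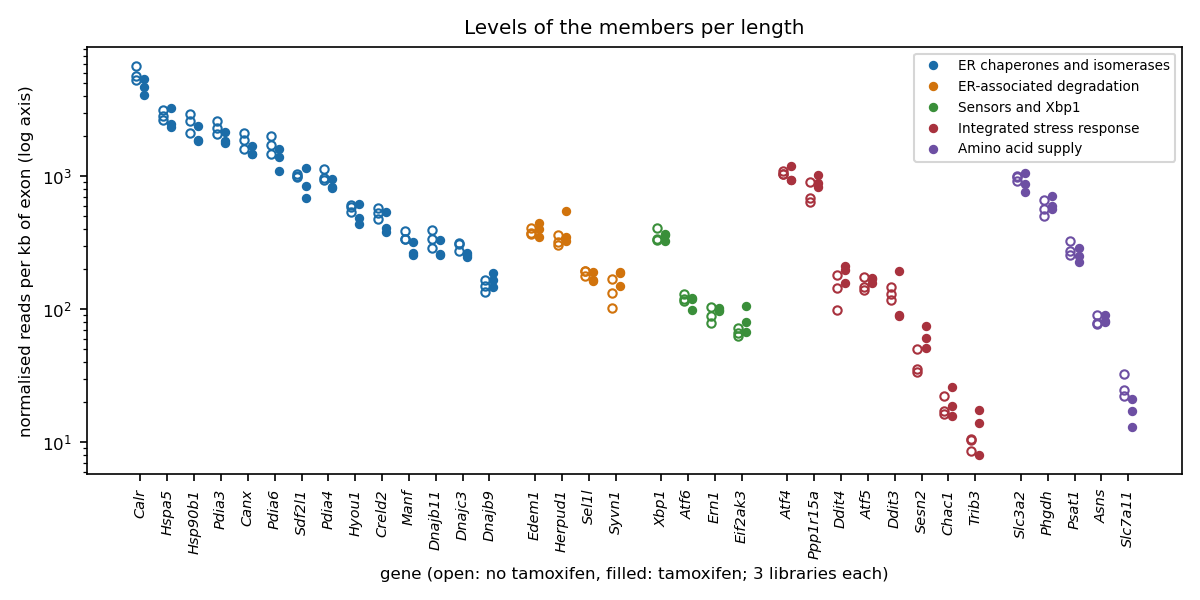
Normalised reads per kb of exon (log axis) for the 35 members by role, with open circles for the 3 libraries without tamoxifen and filled circles for the 3 with tamoxifen. Calr is the highest member (mean 5294) and Trib3 the lowest (mean 11.5), and the open and filled circles of most members overlap.

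No member passed the threshold with tamoxifen. In limma over 13480 genes (log2(value + 1), Benjamini-Hochberg adjusted p under 0.05) 0 of 35 members were called, and all 35 had passed the filter on low values. The background was 0.0445% of genes called, 6 of 13480. At an unadjusted p under 0.05 there were 3 members, Sesn2 higher and Slc7a11 and Manf lower, against 9.01% of all genes. edgeR and DESeq2 on recovered reads also called 0 members (0.0371% and 2.04% of all genes). Of the members 14 had a positive and 21 a negative log2 fold change, with a median of -0.12 beside -0.02 over all genes tested. The negative share was 60% of the members and 53.5% of all genes tested. The range was -0.63 for Slc7a11 to 0.65 for Sesn2, with standard errors of 0.10 to 0.38, and every adjusted limma p lay between 0.475 and 0.974. For comparison, the cytosolic heat shock chaperone Hspa1b was at 39.9-fold (27.6 to 57.7, 95% interval) in the same limma fit and its co-chaperone gene Dnajb1 at 8.46-fold (5.86 to 12.2).

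**Figure D2:**
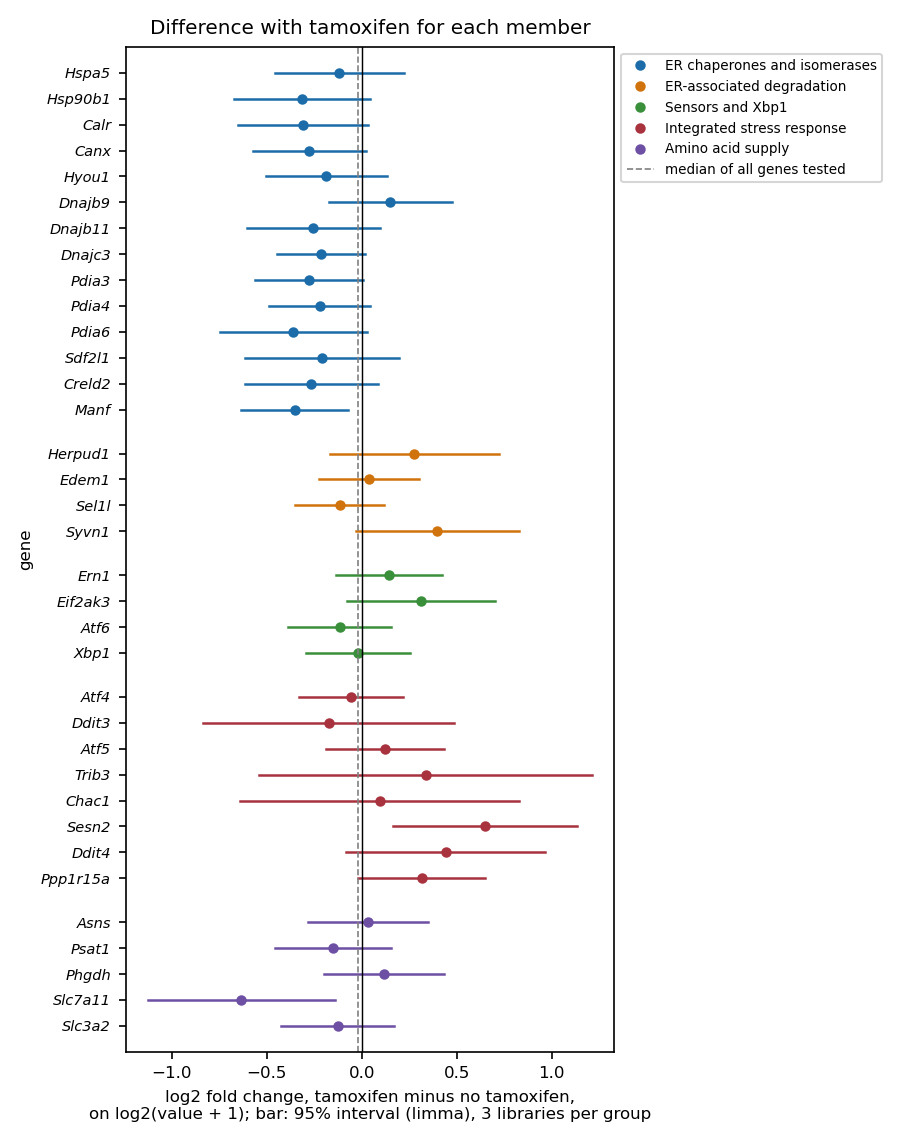
Log2 fold change with tamoxifen for each member on the log2(value + 1) scale (x axis), with bars for the 95% interval of the limma fit on 3 against 3 libraries and a dashed line at the median of all genes tested. Points run from -0.63 (Slc7a11) to 0.65 (Sesn2), and the ER chaperones other than Dnajb9 lie left of 0.

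Hspa5 encodes BiP, the master chaperone of the ER, which binds the sensors at rest and is a standard readout of the response. It had 12071, 13283 and 11229 normalised reads without tamoxifen and 10443, 9875 and 13676 with it. Tamoxifen 1 and 2 lay below and tamoxifen 3 above every library without tamoxifen, so the groups overlapped. The fold was 0.922 with a 95% interval of 0.728 to 1.17 (limma adjusted p = 0.840). The gene lies on chromosome 2 at 34771970 to 34777547 of GRCm38, + strand.

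The ER chaperones, isomerases and their cofactors (14 members) had mostly lower values in tamoxifen 1 and 2. Over all 6 libraries 13 had a negative log2 fold change, as did 53.5% of all genes tested. The exception was the HSP40 co-chaperone Dnajb9 at 0.15 ± 0.14 (SE), and the median was -0.26 with 0 called. With the header names placed over the last 8 columns of values, which counts column 6 as a library without tamoxifen, 8 of the 14 were positive and 6 negative, with a median of 0.016. The 13 lay below every library without tamoxifen in both tamoxifen 1 and tamoxifen 2, a pattern chosen after the values were seen, against 22.7% of all genes tested. In tamoxifen 3, 8 of these 13 lay within the range of the libraries without tamoxifen, 3 above it (Hspa5, Hyou1 and Sdf2l1) and 2 below it (Dnajc3 and Manf). Of the 3056 genes tested with tamoxifen 1 and 2 below, tamoxifen 3 lay within that range for 1247, above it for 782 and below it for 1027. The 14 genes together took 0.801%, 0.918% and 0.756% of the normalised reads outside Rn45s without tamoxifen and 0.637%, 0.674% and 0.776% with it. The group means were 0.825% ± 0.084 and 0.695% ± 0.072 (SD, n = 3 each), and tamoxifen 3 lay between the libraries without tamoxifen. The largest negative value of the group was that of the disulphide isomerase Pdia6, at -0.36 ± 0.17 (SE, limma adjusted p = 0.574).

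Manf encodes a secreted ER stress-inducible survival factor. It had 1198, 1373 and 1197 normalised reads without tamoxifen and 901, 927 and 1132 with it. All 3 tamoxifen libraries lay below the other 3, though tamoxifen 3 was close to them. The fold was 0.783 (0.644 to 0.953, 95% interval), and it did not pass over all genes (limma adjusted p = 0.475). Manf lies on chromosome 9 at 106838312 to 106891979, - strand, and its annotated span overlaps Rbm15b on the same strand, so reads could be shared.

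Dnajc3 encodes a co-chaperone of BiP that also inhibits PERK. It had 1590, 1610 and 1405 normalised reads without tamoxifen and 1262, 1372 and 1326 with it, again with no overlap. The fold was 0.861 (0.734 to 1.01, limma adjusted p = 0.574). The gene lies on chromosome 14 at 118937976 to 118981697, + strand. With Slc7a11, these were the 3 members with every tamoxifen library lower, where 7.62% of all genes tested were so, and Sesn2 was the 1 member with every tamoxifen library higher, against 6.24%. The total, 4 of 35, is close to the 13.9% of all genes whose groups did not overlap.

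Without tamoxifen 3, 2 of the 14 chaperone genes were called lower and 0 higher, Manf at -0.46 ± 0.12 (SE, limma adjusted p = 0.0240) and Pdia6 at -0.48 ± 0.15 (limma adjusted p = 0.0464). That fit called 3.48% of all genes lower and 10.7% in either direction. The group median was then -0.36. With tamoxifen 3 alone against the libraries without tamoxifen, 9 of the 14 were negative and the median was -0.08. In this comparison the 1 tamoxifen library was assumed to vary like the others.

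Marker sums of other cell types set tamoxifen 1 and 2 apart, which were also the libraries in which the chaperones were low. The 10 mesenchymal markers summed to 56326 and 87053 normalised reads in tamoxifen 1 and 2, 4487 in tamoxifen 3 and 2016 to 4328 without tamoxifen. The 10 cartilage markers summed to 19540 and 16623 in tamoxifen 1 and 2, 839 in tamoxifen 3 and 606 to 854 without tamoxifen. The 9 macrophage markers summed to 29678 and 27770 in tamoxifen 1 and 2, 44650 in tamoxifen 3 and 37380 to 43840 without tamoxifen. The 10 endothelial markers summed to 18659 and 19489 in tamoxifen 1 and 2, 7883 in tamoxifen 3 and 11810 to 19470 without tamoxifen. Tamoxifen 3 thus had the lowest endothelial sum of the 6 libraries. None of these markers was at 0 in any of the 6 libraries. The erythroid markers summed to 222 and 348 in tamoxifen 1 and 2, 56.8 in tamoxifen 3 and 67.0 to 71.1 without tamoxifen. The hepatocyte markers summed to 163 and 248 in tamoxifen 1 and 2, 108 in tamoxifen 3 and 86.4 to 103 without tamoxifen. Both of these low lists held a gene at 0 in most of the 6 libraries. With the mean log2 level of the mesenchymal markers as a covariate, 9 of the 14 chaperone genes were negative with a median of -0.06 and 0 called, and Hspa5 changed sign to 0.19 ± 0.18 (SE). The mean log2 level was 10.2 and 10.6 in tamoxifen 1 and 2 and 5.52 to 6.74 in the other 4 libraries, so in that fit the tamoxifen term rests in effect on tamoxifen 3, an arm of 1 library. That fit called 4.90% of all genes. Its calls are listed only with the alternatives at the end and are not taken as results.

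**Figure D3:**
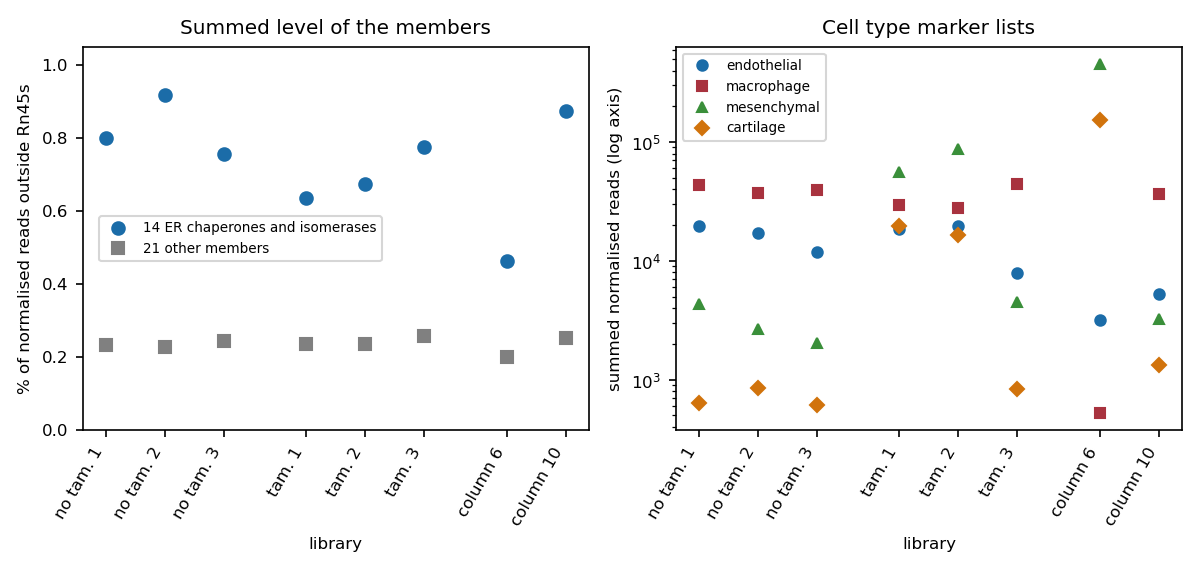
Left, the summed level of the 14 ER chaperones and isomerases (circles) and of the other 21 members (squares) as a percentage of normalised reads outside Rn45s in each library. Right, summed normalised reads (log axis) of endothelial, macrophage, mesenchymal and cartilage markers. The chaperones are at 0.637% and 0.674% in tamoxifen 1 and 2, where mesenchymal markers are at 56326 and 87053 reads, and at 0.464% in column 6, where they are at 450099.

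ER-associated degradation returns misfolded proteins to the cytosol for the proteasome. The median log2 fold change of its 4 members was 0.16, with 3 positive, 1 negative and 0 called. Herpud1, a scaffold of the degradation complex that carries both an ERSE-II and a CARE match in the sequences above, had 744, 712 and 842 normalised reads without tamoxifen and 817, 759 and 1284 with it. Only tamoxifen 3 lay above the libraries without tamoxifen, and the log2 fold change was 0.28 ± 0.19 (SE, limma adjusted p = 0.678). Syvn1, the ubiquitin ligase at the core of the complex, was at 0.40 ± 0.19 and overlaps Mrpl49 on the other strand. Its partner Sel1l was at -0.12 ± 0.10 and the mannosidase-like Edem1 at 0.04 ± 0.12. Sel1l had the order seen for most chaperones, with tamoxifen 1 and 2 below every library without tamoxifen and tamoxifen 3 among them.

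None of the 3 sensor genes and Xbp1 was called, and the groups overlapped for each. Ern1 had 649, 725 and 848 normalised reads without tamoxifen and 806, 796 and 840 with it, at 1.11-fold (0.910 to 1.34, 95% interval). Atf6 had 1099, 1075 and 1212 without and 1110, 909 and 1118 with tamoxifen, at 0.923-fold (0.766 to 1.11). Xbp1, the transcription factor gene downstream of IRE1, had 1070, 1093 and 1331 without and 1180, 1054 and 1204 with tamoxifen, at 0.987-fold (0.815 to 1.19). The sign for Xbp1 depended on the scaling, from -0.02 in limma to 0.01 in edgeR (0.00997).

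The PERK gene Eif2ak3 had 383, 398 and 433 normalised reads without tamoxifen and 636, 487 and 406 with it. Tamoxifen 1 and 2 were above every library without tamoxifen and tamoxifen 3 was among them, which is the reverse of the chaperone pattern. Ddit4, described below, had the same order. Tamoxifen 1 and 2 were both above those libraries for 3 of the 35 members (8.57%), against 18.6% of all genes tested. The fold was 1.24 (0.947 to 1.62, limma adjusted p = 0.606). On GRCm38, Ern1 lies on chromosome 11 at 106394650 to 106487852 (- strand), Eif2ak3 on chromosome 6 at 70844515 to 70905245 (+ strand), Atf6 on chromosome 1 at 170704674 to 170867771 (- strand) and Xbp1 on chromosome 11 at 5520659 to 5525893 (+ strand).

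Among the regulators of the integrated stress response, 6 of 8 were positive and 0 were called, with a median of 0.22. Atf4, whose product is controlled mainly by translation, had 2442, 2431 and 2565 normalised reads without tamoxifen and 2207, 2194 and 2810 with it. As for Hspa5, tamoxifen 1 and 2 were lowest and tamoxifen 3 highest of all 6. The fold was 0.963 (0.797 to 1.16, limma adjusted p = 0.914). Ddit3, which encodes the pro-apoptotic factor CHOP, showed the same order more widely, with 202, 252 and 224 without tamoxifen and 154, 156 and 331 with it. Its log2 fold change was -0.17 ± 0.29 (SE, limma adjusted p = 0.885), and 0.55 ± 0.23 with tamoxifen 3 as the only tamoxifen library (limma adjusted p = 0.425). GENCODE holds more than 1 gene model named Ddit3 at this place, on chromosome 10 at 127290829 to 127293753 (+ strand), and Atf4 lies on chromosome 15 at 80255184 to 80257541 (+ strand).

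Sesn2 encodes a leucine sensor that restrains mTORC1 and is induced by ATF4 and p53. It had 118, 123 and 173 normalised reads without tamoxifen and 212, 179 and 259 with it. Every tamoxifen library was above the other 3, though tamoxifen 2 and no tamoxifen 3 were close. The fold was 1.57 (1.12 to 2.19, 95% interval), and it did not pass over all genes (limma adjusted p = 0.475). Sesn2 lies on chromosome 4 at 132492032 to 132510501, - strand.

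For each of the other regulators the groups overlapped, though Ddit4 had tamoxifen 1 and 2 above every library without tamoxifen. Ppp1r15a, the phosphatase subunit that ends eIF2 alpha phosphorylation, was at 0.32 ± 0.15 (SE), and Ddit4, an mTORC1 inhibitor also induced by hypoxia and glucocorticoids, at 0.44 ± 0.23. Atf5, a transcription factor gene translated under stress like Atf4, was at 0.12 ± 0.14 and overlaps Nup62 and Il4i1 on the other strand. Trib3 ran from 17.1 to 37.2 normalised reads over the 6 libraries and Chac1 from 25.7 to 42.8. For both, the highest library was tamoxifen 3 and the lowest tamoxifen 2, and the fold intervals were wide, at 0.688 to 2.32 for Trib3 and 0.642 to 1.77 for Chac1.

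**Figure D4:**
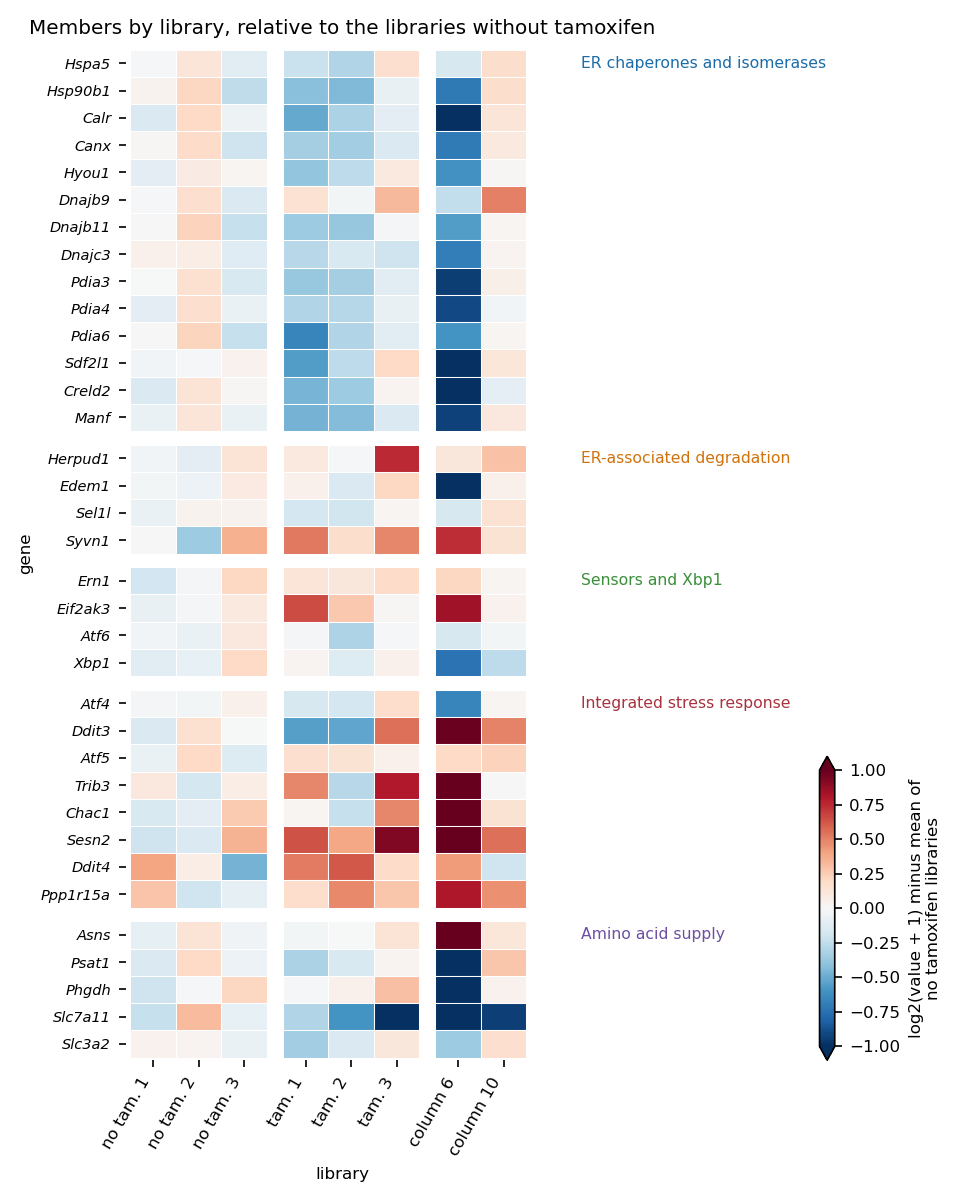
Each of the 35 members (rows, by role) in each library (columns), coloured by log2(value + 1) minus its mean in the 3 libraries without tamoxifen, with colours limited to -1 to 1. The chaperone block is blue in tamoxifen 1 and 2 and near white in tamoxifen 3, and column 6 has 14 of 14 chaperones below and 7 of 8 regulators above the libraries without tamoxifen.

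Genes of amino acid supply had a median of -0.13, with 2 of 5 positive and 0 called. Slc7a11, the cystine importer that feeds glutathione synthesis, had 310, 454 and 343 normalised reads without tamoxifen and 296, 240 and 181 with it. All tamoxifen libraries were lower than the other 3, with tamoxifen 1 next to them and tamoxifen 3 the lowest. The fold was 0.645 (0.458 to 0.907, 95% interval), without passing over all genes (limma adjusted p = 0.475). It lies on chromosome 3 at 49892526 to 50443614, - strand.

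Asns, asparagine synthetase and a classic ATF4 target, differed little, with 211, 246 and 218 normalised reads without tamoxifen and 220, 224 and 246 with it. Its fold was 1.02 (0.823 to 1.28). The serine synthesis genes Phgdh and Psat1 were at 0.12 ± 0.14 and -0.15 ± 0.13 (SE) and Slc3a2 at -0.13 ± 0.13. The annotation holds the pseudogene copies Phgdh-ps1 and, for the chaperone above, Calr-ps, and how reads were divided with them is uncertain.

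Members with and without an ERSE or ERSE-II match were compared as a description. The 10 with a match had a median log2 fold change of -0.26, with 8 of 10 negative, and the 22 with a promoter entry but no match had a median of 0.04, with 10 negative. Within the chaperones the medians were -0.27 for the 8 with a match and -0.22 for the 4 without, so the role of the members and the element overlap. The exceptions among the 10 were Syvn1 and Herpud1. The 5 members with a CARE match had a median of 0.09 and ran from -0.63 for Slc7a11 to 0.34 for Trib3.

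Other genes of the same pathways, listed separately from the members, gave 0 calls as well. In the ER list 45 of 47 genes were tested, 16 positive and 29 negative, with a median of -0.07, and 2 had an unadjusted p under 0.05 (1 in each direction). Those of lowest p were Wfs1, an ER membrane regulator of calcium and ATF6, at 0.75 ± 0.27 (SE), the ER stress transducer gene Creb3l2 at 0.34 ± 0.15 and the disulphide isomerase Txndc5 at 0.18 ± 0.09 in the positive direction. In the negative direction they were the signal peptidase genes Sec11a at -0.36 ± 0.17, Spcs3 at -0.30 ± 0.12 and Spcs2 at -0.27 ± 0.13. The limma adjusted p of these 6 was 0.499 to 0.599.

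In the list of further integrated stress response genes 42 of 45 were tested, 20 positive and 22 negative, with a median of -0.03, and 3 had an unadjusted p under 0.05, all positive. Gdf15, a stress cytokine induced by ATF4, CHOP and p53, had 88.5, 62.7 and 81.4 normalised reads without tamoxifen and 140, 191 and 150 with it. The groups did not overlap, at 2.06-fold, and the limma adjusted p was 0.315, while DESeq2 called it (adjusted p = 0.00983). The amino acid transporter Slc38a2 was at 0.35 ± 0.12 (SE) and the angiogenic factor Vegfa at 0.37 ± 0.13, and the lowest p in the negative direction belonged to Eif2s1 (-0.32 ± 0.15), which encodes eIF2 alpha, Sars (-0.28 ± 0.13), a tRNA synthetase, and Cebpg (-0.23 ± 0.11), a partner of ATF4. Without tamoxifen 3, 9 of the 87 genes of both lists were called, 4 higher and 5 lower, in a fit that called 10.7% of all genes. edgeR called 0 of them and DESeq2 called Gdf15 alone.

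Columns 6 and 10, shown apart, differed from each other. Hspa1b had 924 normalised reads in column 6 and 56354 in column 10, against 1091 to 1618 without and 44218 to 78419 with tamoxifen. Dnajb1 had 1123 in column 6 and 5231 in column 10, against 671 to 763 without and 4216 to 8776 with tamoxifen. Column 10, a tamoxifen library under 1 placement of the header and unnamed under the other, had 22 of 35 members within the range of the libraries without tamoxifen, 11 above and 2 below, where 45.0% of all genes tested lay within, 25.6% above and 29.4% below, with Hspa5 at 13707, Dnajb9 at 540 and Slc7a11 at 189 normalised reads. In column 6, whose group depends on the placement, all 14 chaperones lay below the libraries without tamoxifen, from Hspa5 at 10822 to Sdf2l1, an ER chaperone cofactor, at 155 against 1093 to 1154. There 7 of the 8 regulators lay above them, with Ddit3 at 448, Sesn2 at 342 and Atf4 below, at 1570. Trib3, Chac1 and Asns were at least 2-fold above the highest library without tamoxifen there, 3 of 35 members beside 18.0% of all genes tested. Asns was at 940, while Phgdh and Psat1 were at 466 and 498. Column 6 also had 450099 normalised reads of mesenchymal, 154298 of cartilage and 88819 of erythroid markers, 3202 of endothelial and 525 of macrophage markers, and 47.8% of all genes tested lay below and 40.9% above the libraries without tamoxifen. Column 10 had 5283 normalised reads of endothelial, 36783 of macrophage, 3259 of mesenchymal and 1338 of cartilage markers. The part of these markers in the member values was not tested.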

How the data were processed

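The authors deposited 1 table of normalised read counts per gene symbol, a signal unit. Per the submitters' processing notes, mm10 and hg38 are the builds, and the tools include STAR, DESeq2 and HTSeq 0.11.2. Their roles and the strand setting of the counting are not given here. All values of each column were whole multiples of 1 step (tolerance 0.001 reads), so whole reads were recovered for depth and for the count tests. The header has 9 fields and each line 10, and 1 of the 9 value columns was not used. With the names over the first 8 value columns, this unused column is named as a library without tamoxifen. That alternative was fitted without it. The planned comparison kept 3 libraries per group.

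Genes with a mean of at least 10 over the 6 libraries (13480) were tested on log2(value + 1) in R 4.3.3 by limma 3.58.1, using a mean-variance trend and group as the only term, Benjamini-Hochberg adjusted at 0.05. Fold changes are on that scale and understate the change of low genes. Intervals are 95%. edgeR 4.0.16 (quasi-likelihood, TMM) and DESeq2 1.42.0 on recovered reads, other pseudocounts, filters, a replicate block, a mesenchymal covariate, left-out libraries and header placements were alternatives. The script was tested on simulated data. The members and lists were chosen with earlier results of these data known. Values by library are given for members that were called or whose groups did not overlap and for 7 core genes, with Herpud1 and Asns added after their values were seen; each other pathway list is illustrated by its 3 positive and 3 negative genes of lowest p. Levels per kb use merged GENCODE M21 exons.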

Additional observations from a re-analysis of the deposited data

Results flagged for a closer look

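In column 6, which entered only the alternatives on the placement of the header names, 3 of the 35 members were at least 2-fold above the highest library without tamoxifen. Of all genes tested, 18.0% were so. Chac1 was at 232 normalised reads (114 recovered reads) against 26.9 to 36.5. Trib3 was at 118 (58 recovered reads) against 18.4 to 22.6. Asns was at 940 (462 recovered reads) against 211 to 246. These 3 are among the 5 members with a CARE match. Of the other two, Slc7a11 was at 102 against 310 to 454 and Herpud1 at 828, within the range of 712 to 842. The group of column 6 is not settled by the header. Its marker values and those of Hspa1b and Dnajb1 are given with the columns shown apart.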

How the results depend on the processing

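The count of members called was 0 in all alternatives but 2: it was 3 with the mesenchymal covariate (Herpud1 and Sesn2 higher, Slc7a11 lower; in effect from tamoxifen 3 alone, where none of the 3 was called) and 0 to 2 over the left-out libraries, with 2 only without tamoxifen 3. The median over the members was 0.038 when the names were placed over the last 8 columns of values, 0.11 with the covariate and 0.10 with tamoxifen 3 alone, which was chosen after seeing the data. The first of these also moved the difference in summed share from -0.121 to 0.0250 percentage points and the chaperone median from -0.26 to 0.016, with 8 positive and 6 negative. Calls over all genes were 275 in DESeq2, 21 with the replicate block, 0 with the names over the first 8, 660 with the covariate, 91 with tamoxifen 3 alone and 2 to 1442 over the left-out libraries (3, 2 and 2 without no tamoxifen 1, 2 and 3, and 1442 without tamoxifen 3). Calls among other pathway genes were 1 in DESeq2, 2 with the covariate, 2 with tamoxifen 3 alone and 0 to 9 over left-out libraries. The replicate numbers are shared between the groups, but the labels do not say that a number marks a shared litter, so they were not taken as pairs. Deviations of same-numbered libraries correlated at 0.20, 0.04 and 0.34 across genes, which does not settle whether they are pairs. The replicate block changed no call among the members.

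Signs changed for the genes below, of which none was called in the setting concerned. With the names over the last 8 the log2 fold change was 0.11 for Xbp1, 0.13 for Atf4, 0.018 for Dnajc3 and -0.030 for Txndc5. In the same setting it was 0.24 for Spcs3, 0.12 for Spcs2 and 0.11 for Eif2s1. With the names over the first 8, again without the unused value column, it was 0.12 for Ddit3 and -0.20 for Gdf15. With the covariate it was 0.19 for Hspa5, 0.13 for Xbp1, 0.23 for Atf4, 0.68 for Ddit3, 0.046 for Atf6, -0.015 for Creb3l2 and 0.015 for Spcs2. With tamoxifen 3 alone it was 0.17 for Hspa5, 0.054 for Xbp1, 0.18 for Atf4 and 0.55 for Ddit3. Xbp1 was at 2.5e-05 with TMM scaling and 0.00997 in edgeR. Over left-out libraries Xbp1 ran from -0.077 to 0.081, Atf4 from -0.17 to 0.0068 and Ddit3 from -0.54 to 0.013. The cause of these shifts was not tested. Of 475 values for single named genes under alternatives, Hspa1b and Dnajb1 included, 434 kept their direction and side of the threshold, and 28 changed sign. Apart from Hspa1b and Dnajb1, none of these genes was called in the main fit. The pseudocounts, filters and replicate block leave the fold changes almost or fully the same. This count therefore says little about how firm the values are. Low counts limit Trib3 and Chac1 most.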
